A study of Mus musculus with 20 samples.

Results

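The genes described here gained H3K4me3, the histone mark of active and poised promoters, when wild type mouse embryonic stem (ES) cells became embryoid bodies (EB). A gene was included when its deposited H3K4me3 value was under 5 in wild type ES, at least 8 in wild type EB, and at least 3 times higher in EB than in ES. The rule took 219 of 20462 genes. The genes were thus chosen by both wild type H3K4me3 values, which are given as a description. The RNA, the H3K27me3 values and the knockout libraries were not used to choose them.

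The cells were TL1 mouse ES cells, grown with serum and LIF, and EB, cell aggregates that differentiate after LIF is left out. Each stage was measured in wild type cells and in cells in which CRISPR/Cas9 had been used against p150, the product of Chaf1a and largest part of the CAF-1 histone chaperone (called knockout here, after the labels). RNA-seq had 2 libraries in each of the 4 groups, and ChIP-seq of H3K4me3 and of H3K27me3 had 1 library per group, so ChIP values have no replicate error and no test. The labels do not say whether the knockout was 1 clone, or whether the paired RNA libraries came from separate cultures, so the spread behind the p-values may be technical only.

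H3K4me3 is written at promoters by SET1 and MLL complexes and accompanies transcription start, while H3K27me3 is written by Polycomb repressive complex 2 and accompanies gene silencing. In ES cells many promoters of developmental regulators carry both marks, a state called bivalent, and are silent. CAF-1 deposits histones H3 and H4 on newly replicated DNA.

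Promoter sequences of 7 of the genes are shown because their base composition and their marks differ. Each is the 250 bases before the gene start that RefSeq (GRCm38.p6) gives, 5′ to 3′ on the gene's strand, with CG dinucleotides in capitals. RefSeq's start can differ from the end of the locus in the RNA table, and for Irx3, Foxc1, Pcdh18 and Tmed3 it lies inside that locus. The first 3 are of genes whose H3K27me3 rose together with H3K4me3: Irx3 (chr8:91801655-91801904, minus strand, 13 CG), Foxc1 (chr13:31806396-31806645, plus strand, 29 CG) and Nkx2-5 (chr17:26841566-26841815, minus strand, 8 CG).
Irx3: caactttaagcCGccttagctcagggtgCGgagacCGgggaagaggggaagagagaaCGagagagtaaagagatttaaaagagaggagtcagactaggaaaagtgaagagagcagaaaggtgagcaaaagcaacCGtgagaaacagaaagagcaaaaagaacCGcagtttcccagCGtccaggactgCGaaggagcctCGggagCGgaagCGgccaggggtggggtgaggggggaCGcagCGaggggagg
Foxc1: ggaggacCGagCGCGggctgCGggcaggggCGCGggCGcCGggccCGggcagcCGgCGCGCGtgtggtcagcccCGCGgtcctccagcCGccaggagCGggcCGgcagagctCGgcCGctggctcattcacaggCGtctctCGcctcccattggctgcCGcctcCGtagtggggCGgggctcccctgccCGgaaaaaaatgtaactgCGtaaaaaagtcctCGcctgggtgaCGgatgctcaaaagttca
Nkx2-5: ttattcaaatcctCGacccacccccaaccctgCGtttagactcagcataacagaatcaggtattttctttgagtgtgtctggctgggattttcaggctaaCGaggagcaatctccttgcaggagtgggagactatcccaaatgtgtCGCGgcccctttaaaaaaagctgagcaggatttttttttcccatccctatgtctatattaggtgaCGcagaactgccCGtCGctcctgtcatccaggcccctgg

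The next 2 are of genes whose H3K27me3 fell while H3K4me3 rose, Pcdh18 (chr3:49757317-49757566, minus strand, 23 CG) and Tmed3 (chr9:89705044-89705293, minus strand, 19 CG).
Pcdh18: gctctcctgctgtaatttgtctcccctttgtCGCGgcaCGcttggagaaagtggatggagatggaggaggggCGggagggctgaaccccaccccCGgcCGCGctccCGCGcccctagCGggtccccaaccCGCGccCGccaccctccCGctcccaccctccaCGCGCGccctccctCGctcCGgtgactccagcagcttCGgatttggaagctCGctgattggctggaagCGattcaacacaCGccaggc
Tmed3: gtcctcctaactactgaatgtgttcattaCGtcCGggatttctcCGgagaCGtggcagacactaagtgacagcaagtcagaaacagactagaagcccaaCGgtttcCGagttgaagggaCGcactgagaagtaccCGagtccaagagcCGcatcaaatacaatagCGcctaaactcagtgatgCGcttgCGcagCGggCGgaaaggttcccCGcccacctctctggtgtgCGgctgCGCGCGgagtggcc

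The last 2 are of Col3a1 (chr1:45311288-45311537, plus strand, 0 CG), which had the highest wild type EB to ES ratio of H3K4me3 among the 219 genes, and of Fgf5 (chr5:98253934-98254183, plus strand, 24 CG), which had the highest such ratio in knockout.
Col3a1: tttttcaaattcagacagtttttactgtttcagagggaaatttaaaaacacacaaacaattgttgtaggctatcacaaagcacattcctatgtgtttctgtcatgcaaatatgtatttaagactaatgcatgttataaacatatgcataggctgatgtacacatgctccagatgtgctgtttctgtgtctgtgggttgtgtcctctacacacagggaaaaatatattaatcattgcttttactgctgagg
Fgf5: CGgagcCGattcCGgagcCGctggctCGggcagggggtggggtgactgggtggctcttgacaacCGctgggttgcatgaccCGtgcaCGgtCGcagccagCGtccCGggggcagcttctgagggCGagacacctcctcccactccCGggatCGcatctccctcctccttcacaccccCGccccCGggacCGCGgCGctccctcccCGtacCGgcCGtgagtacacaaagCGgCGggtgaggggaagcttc

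A promoter was found for 154 of the 219 genes and for 15503 of the 20462. The median was 15 CG dinucleotides in the 219-gene set and 11 over all genes. Genes at 8 or more in wild type ES had a median of 17, and the remaining genes under 5 in wild type ES had a median of 2. A CpG observed to expected ratio of at least 0.6 was found in 60.4% of the set, 47.9% of all genes, 72.6% of genes marked in ES and 10.5% of the other genes low in ES. In base composition the genes thus lay nearer to those marked in ES than to the other low genes, with exceptions such as Col3a1. The letters TATAAA, searched on both strands, were in 9.74% of the set's promoters and 11.9% of all promoters.

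Some gene families had many members in the set. Families were recognised by symbol, after the genes had been seen. It held 51 homeobox genes (23.3%, against 0.924% of all genes), among them 15 of 39 clustered Hox genes, 10 forkhead genes (4.57%, against 0.215%) and 4 of 8 Kcna potassium channel genes. An RNA table row was found for 211 genes. Of these, 120 (56.9%, against 32.7% of all genes) had loci under 10 kb, and 19 (9%, against 3.71%) were on the X chromosome. Another gene of the set lay within 100 kb of 39 genes, as in the Hox clusters and at Dlx5 and Dlx6, Krt8 and Krt18, and Ndn and Magel2. Those neighbours may share signal and are not independent.

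Facts of the whole series bear on these values. The ChIP unit is called RPKM on promoters in the file names, but longer loci had higher values (rank correlation over genes between 0.429 and 0.482 for H3K4me3 and between 0.59 and 0.687 for H3K27me3), so levels are compared only within a gene. Values were whole multiples of 0.02668 (0.04 in wild type EB H3K27me3) within 0.02 of a step. The wild type EB H3K4me3 library was more spread than the other 3, with a lower quartile of 0.934 against 1.47 to 1.6 and an upper quartile of 21.3 against 17 to 18.3. FPKM totals ran from 641692 to 781913 per library, and the read depth is unknown. Chaf1a RNA was 49.5 and 43 FPKM in ES of wild type and 48.1 and 38 in those of knockout, and 31.7 and 32.1 against 31.6 and 35 in EB, which neither shows nor excludes a loss of the protein.

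RNA of several lists of cell type markers, though not of all, also differed between EB of both genotypes. The summed FPKM of 25 pluripotency genes was 470 and 723 in wild type EB, against 8853 and 6400 in knockout EB and 7676 to 8562 in ES. For 28 heart muscle markers it was 7061 and 5626 in wild type EB against 345 and 715 in knockout EB, with 0 of the 28 under 1 FPKM in every library. For 44 blood and endothelium markers it was 3654 and 1273 against 214 and 322, with Ptprc under 1 FPKM throughout. For 48 stroma markers it was 4745 and 4982 against 1513 and 1836, with Lox under 1 FPKM throughout. For 29 primitive streak and mesoderm factors it was 521 and 582 against 112 and 198. The sums overlapped for 39 endoderm markers, at 1853 and 1742 against 1552 and 1845. They also overlapped for 31 neural markers, at 133 and 152 against 141 and 167. For 16 trophoblast markers they were 144 and 134 against 103 and 80.2. In that order, 5, 3, 8 and 3 of these genes were under 1 FPKM in every library. None of the 25 pluripotency genes was in the set. In these bulk samples, fewer cells that carry a mark or transcript cannot be told apart from less of it per cell, and the part of cell makeup in the results below was not tested.

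The knockout libraries show how H3K4me3 of these genes went where the rule did not set it. Over the 219 genes the median value was 3.6 in wild type ES and 14.5 in wild type EB, against 3.82 and 6.96 in knockout. Within ES the knockout value was above that of wild type in 155 genes (70.8%, against 52.8% of all genes), where the upper limit of 5 applied to wild type only. The median EB to ES ratio was 4.13 in wild type (range 3.03 to 16.8), where the choice of genes sets it, and 1.78 in knockout (range 0.849 to 3.87). For all genes the median knockout ratio was 1, and for the other genes under 5 in wild type ES it was 0.958. The mark was higher in knockout EB than in knockout ES for 218 of the 219 genes (47.7% of all genes). The exception was Rarb, a retinoic acid receptor, at 5.31 in knockout ES and 4.51 in knockout EB.

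**Figure D1:**
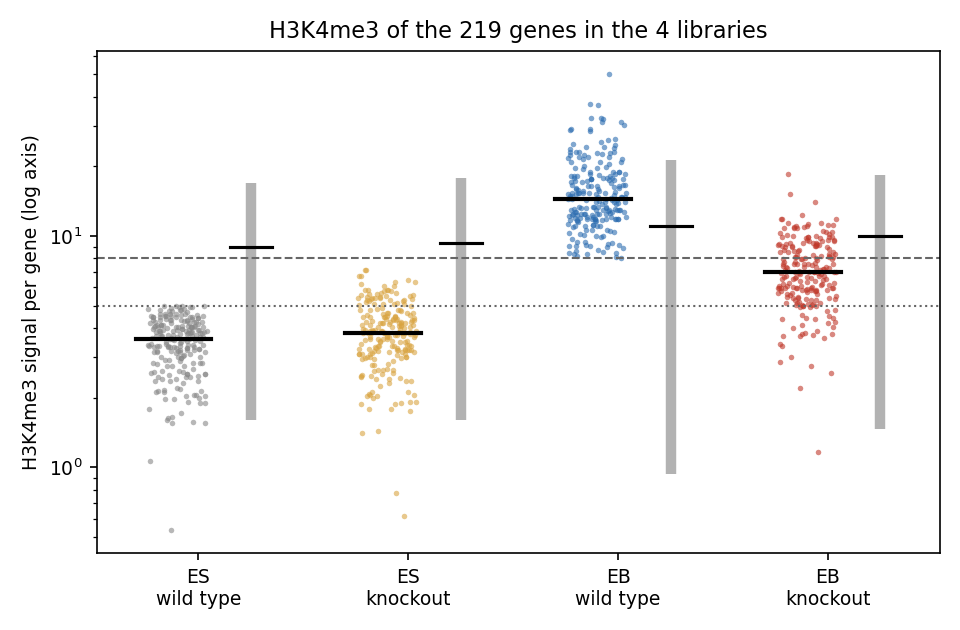
Deposited H3K4me3 signal (log axis) of the 219 genes, 1 point per gene, in each of the 4 libraries, with a black line at their median; grey bars span the quartiles of all 20462 genes, with their median as a short line, and dotted and dashed lines mark the thresholds of 5 and 8. The knockout EB points, median 6.96, lie between the knockout ES points, median 3.82, and the wild type EB points, median 14.5.

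The knockout rise seldom reached the size that defined the set. At least a 2-fold rise was seen in 84 genes (38.4%, against 3.83% of all genes), and 77 (35.2%, against 56.0%) had a knockout EB value of 8 or more. Only 11 (against 0.0782% of all genes) had both 8 or more and at least 3 times the knockout ES value. These were Prrx1, Gata6, Irx3, Krt18, Fgf5, Evx1, Hand1, Irx5, Krt8, Msx1 and Cyp26a1. The full rule applied to the knockout libraries found 12 genes (0.0586% of all genes), of which 9 were in the set, 75% of the knockout list and 4.11% of the wild type list. The others were Cdx2, Lhx1 and Gm600. Cdx2 and Lhx1, regulators of early patterning, also rose in wild type, to 28.0 and 29.3 in EB, but from ES values of 5.34 and 5.26, just above the threshold of 5. Median scaling of the libraries gave 5 genes instead of 12, and 3 of these were in the set of 120 that the rule then took.

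In knockout EB the value was lower than in wild type EB for all 219 genes (54.9% of all genes), and at least 2-fold lower, on values with no offset, for 139 (63.5%, against 7.37%). Since a high wild type EB value was a condition of the choice, these shares describe the set and nothing is read from them. The genes differed widely among themselves all the same. On a ratio of values plus 1, knockout over wild type EB ran from 0.218 in Col3a1 to 0.997 in Mogat2, a gene of triglyceride synthesis, with a median of 0.503 (0.975 for all genes).

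**Figure D2:**
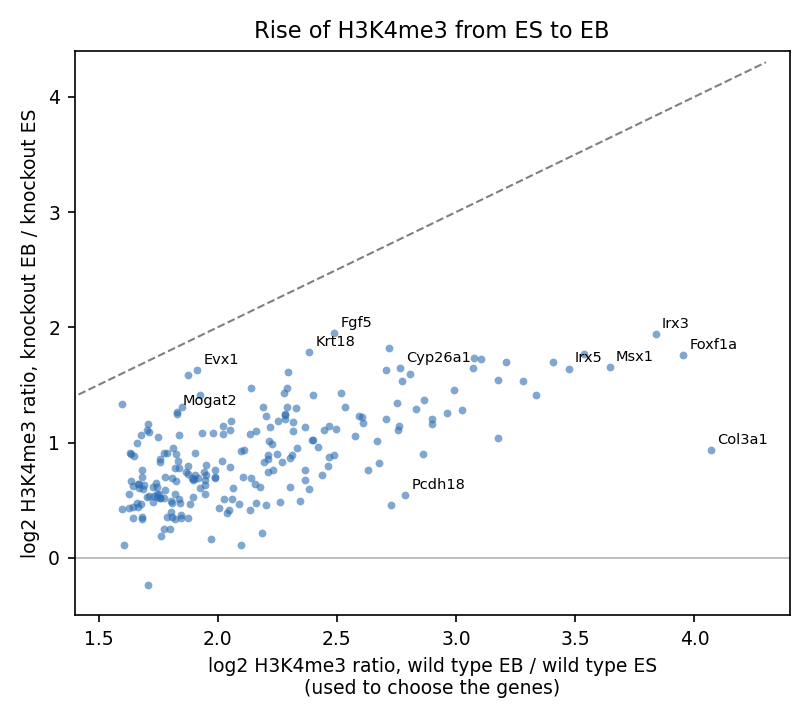
log2 ratio of H3K4me3 in EB over ES, wild type on the x axis and knockout on the y axis, 1 point per gene for 219 genes, with a dashed line of equal ratios. Points lie below the line and, except for Rarb, above 0; Irx3 and Fgf5 are the highest in knockout, at ratios of 3.83 and 3.87.

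The genes with the highest deposited wild type EB values, which also depend on locus length, included several transcription factors. Gata6 (ENSMUSG00000005836.8, mm10 chromosome 18, 11052510 to 11085635), a zinc finger factor of primitive endoderm and heart, had 4.35 in wild type ES and 50.4 in wild type EB, against 5.44 and 18.6 in knockout. Irx3 (ENSMUSG00000031734.13, chromosome 8, 91798525 to 91802067), an Iroquois homeobox factor of neural and heart patterning, had 2.61 and 37.4 against 3.07 and 11.8. Foxc1 (ENSMUSG00000050295.4, chromosome 13, 31806633 to 31812476), a forkhead factor of paraxial mesoderm and vessels, had 4.08 and 36.9 against 5.44 and 11.2. In all 3 genes the knockout EB value lay between both ES values and that of wild type EB. Foxc2, Msx1, Foxf2, Prrx1 and Irx5 followed, at 31.0 to 32.5 in wild type EB, against 9.34 to 11.8 in knockout EB.

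The genes with the lowest knockout to wild type ratio in EB included matrix and adhesion genes beside transcription factors. Col3a1 (ENSMUSG00000026043.18, chromosome 1, 45311538 to 45349706), which encodes a fibrillar collagen of connective tissue, had 0.534 in ES and 8.96 in EB of wild type, against 0.614 and 1.17 in knockout. Pcdh18 (ENSMUSG00000037892.13, chromosome 3, 49743296 to 49757325), a protocadherin of cell adhesion, had 2.83 and 19.5 against 2.56 and 3.74. Foxf1a, a forkhead factor of lateral mesoderm, had 1.55 and 23.9 against 1.76 and 5.98. Maf, Fat4 and Bmp5, a transcription factor, an atypical cadherin and a BMP ligand, had knockout to wild type ratios of 0.287 to 0.3.

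The highest ratios included genes expressed in simple epithelium and epiblast. Krt8 and Krt18, the paired keratins of simple epithelium, had 18.2 and 12.5 in wild type EB, against 15.2 and 9.02 in knockout EB. Fgf5 (ENSMUSG00000029337.2, chromosome 5, 98254184 to 98277030), a growth factor that marks the post-implantation epiblast, had 3.25 in ES and 18.2 in EB of wild type, against 3.66 and 14.1 in knockout. Evx1, a homeobox gene of the primitive streak, had 15.6 in wild type EB, against 11.9 in knockout EB. By family, the knockout EB to ES ratio had a median of 2.33 in the 51 homeobox genes, 2.21 in the 10 forkhead genes and 1.62 in the other 158. The wild type EB to ES ratio, which the choice of genes sets, had medians of 4.98, 6.62 and 3.83. Knockout over wild type EB, on values plus 1, had the reverse order of these 2 families to the others, with medians of 0.474, 0.381 and 0.515.

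H3K27me3 divided the genes. From wild type ES to wild type EB it rose at least 2-fold, on values plus 0.1, in 115 genes (52.5%, against 11.8% of all genes) and fell at least 2-fold in 26 (11.9%, against 9.02%). The share with a fall was thus near that of all genes. So in 115 genes both marks rose, and bulk ChIP cannot tell marks on the same cells apart from marks on different cells of the EB. In 78 genes H3K27me3 stayed within 2-fold.

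The 115 genes in which both marks rose held many homeobox genes and short loci. They held 48 of the 51 homeobox genes and all 10 forkhead genes of the set, and 87 of 111 with a locus were under 10 kb, against 26 of 74 within 2-fold and 7 of 26 with a fall. Nkx2-5 (ENSMUSG00000015579.4, chromosome 17, 26838664 to 26841565), a homeobox factor of heart precursors, had H3K27me3 of 4.91 in ES and 37.1 in EB of wild type, against 3.42 and 10.8 in knockout. Egr3, an immediate early zinc finger gene, had 2.35 and 38.4 against 1.49 and 6.19, and rose 15.7-fold in wild type. Foxe1, Hmx3 and Sox3, factors of thyroid, inner ear and neural development, rose 13.8-fold, 12.6-fold and 11.5-fold in wild type. Their rises in knockout were 4.18-fold, 3.27-fold and 2.24-fold. Egr3, Foxe1, Hmx3 and Sox3 were named for their large rises in wild type, a choice that by itself favours a smaller rise in knockout.

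The Hox genes belonged to this group in the examples described. Hoxc9 had H3K27me3 of 13.0 in wild type ES and 66.4 in wild type EB, against 9.39 and 23.2 in knockout, and H3K4me3 of 4.19 and 18.5 against 3.25 and 9.02. Hoxb4 had H3K27me3 of 5.55 and 19.2 in wild type and 3.95 and 8.22 in knockout. Hoxd9 and Hoxa5 rose 5.39-fold and 4.69-fold in H3K27me3 in wild type and 2.64-fold and 2.13-fold in knockout. The H3K27me3 rise was thus smaller in knockout at these 4 Hox genes. Their H3K4me3 rise in wild type was set by the choice of genes and is not compared.

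In the 26 genes whose H3K27me3 fell, the mark shifted in the opposite direction to H3K4me3. Tmed3 (ENSMUSG00000032353.9, chromosome 9, 89699206 to 89705068), a cargo receptor of the secretory pathway, had H3K27me3 of 2.83 in ES and 0.24 in EB of wild type, against 2.19 and 2.35 in knockout. Its H3K4me3 was 3.39 and 10.6 in wild type, against 3.95 and 5.36 in knockout. Pcdh18 had H3K27me3 of 5.47 and 1.2 against 4.72 and 3.95. In both genes the wild type EB value was the low one, and the knockout EB value stayed near that of ES. Car14, a carbonic anhydrase, fell from 7.58 to 1.64 in wild type and from 5.52 to 4.99 in knockout. Tmed3, Pcdh18 and Car14 were named for their large falls in wild type, a choice that by itself favours a smaller change in knockout. Efnb1, an ephrin ligand on the X chromosome, fell from 9.71 to 4.68 in wild type and rose from 7.39 to 10.9 in knockout.

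In knockout both movements of H3K27me3 were smaller. It rose at least 2-fold in 75 genes (34.2%, against 7.60% of all genes) and fell in 1 (0.457%, against 1.56%), Arhgef5. Over all genes 2-fold changes were also fewer in knockout. Rises were seen in 7.60% against 11.8% in wild type, and falls in 1.56% against 9.02%. With ratios on values plus 1, the rise passed 2-fold in 47 genes instead of 75. Of the 115 genes with a rise in wild type, 73 rose at least 2-fold in knockout, and of the 26 with a fall, 1 fell. Compared within EB, knockout H3K27me3 was at least 2-fold below wild type in 115 genes (52.5%, against 6.72%) and above it in 11 (5.02%, against 5.83%). Within ES it was 2-fold lower in 5 (2.28%, against 2.44%) and 2-fold higher in 0 (against 1.14%). Its median over the 219 genes was still lower in knockout ES, at 4.08 against 5.42 in wild type ES (1.63 and 1.65 over all genes). By class, knockout and wild type ES medians were 3.39 and 4.94 with a rise, 5.67 and 6.14 within 2-fold, and 7.38 and 7.58 with a fall. The part of this ES difference in the other ratios was not tested. By class, 112 of the 115 genes with a rise were 2-fold lower in knockout EB, and 7 of the 26 with a fall were 2-fold higher, but the class and this ratio share the wild type EB library.

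**Figure D3:**
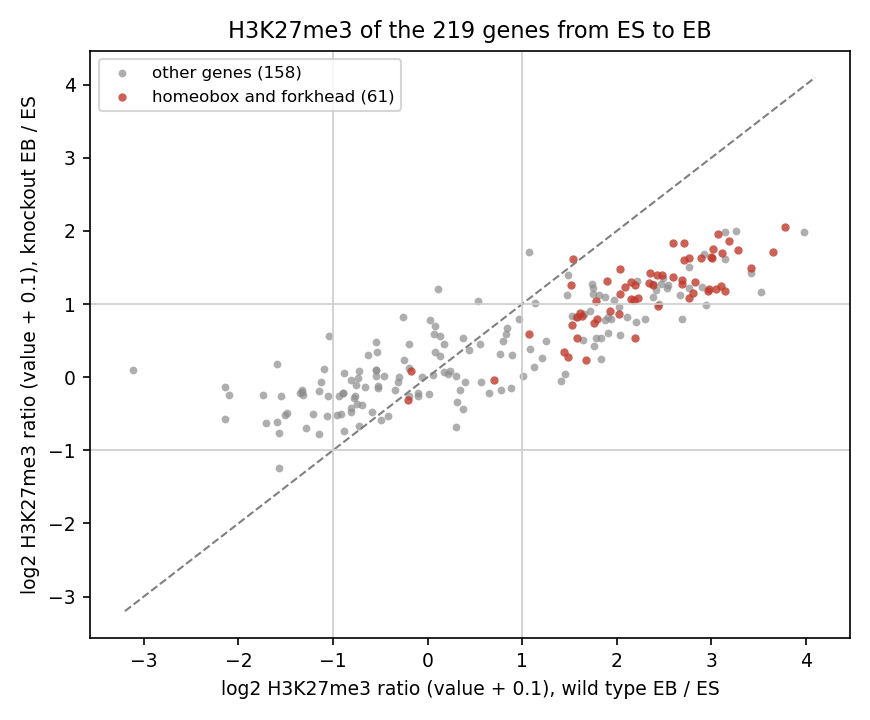
log2 ratio of H3K27me3 (value + 0.1) in EB over ES, wild type on the x axis and knockout on the y axis, for 219 genes, with the 61 homeobox and forkhead genes in red, thin lines at 2-fold and a dashed line of equal ratios. Of the red points, 58 lie right of the 2-fold line for wild type.

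RNA was a readout that the choice of genes did not use. Over the 211 genes with a row, the median FPKM was 0.086 and 0.0581 in both ES libraries of wild type and 3.43 and 4.04 in both of its EB libraries, against 0.147 and 0.0896, then 0.479 and 1.1, in knockout. Both wild type EB libraries were above both wild type ES libraries in 201 of 211 genes (95.3%, against 41.6% of all genes with a row). Exceptions named elsewhere in the text were Evx1, Cdk5r2 and Zic4. Zic4, a zinc finger factor of the cerebellum, had H3K4me3 of 17.6 in wild type EB and FPKM of 0.0285 and 0. In 45 of 211 genes (21.3%) both wild type EB libraries were under 1 FPKM. The lower quartile of the mean wild type EB FPKM was 0.982 in the 211 genes and 0.0799 over all genes with a row. Such low levels were thus less frequent in the set than over all genes.

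Genes with a rise of H3K27me3 had a lower RNA level in wild type EB, and this held for the other groups too. The median of the mean wild type EB FPKM was 1.64 in genes with a rise of H3K27me3, 5.15 in those within 2-fold and 13.4 in those with a fall. Both wild type EB libraries were under 1 FPKM in 34 of 111, 11 of 74 and 0 of 26. For the same classes, wild type ES medians were already 0.0546, 0.119 and 0.534. Knockout medians kept this order, at 0.0673, 0.173 and 0.754 (ES), then 0.341, 1.27 and 5.38 (EB). The class order was thus present in ES, and the part of the H3K27me3 rise in it was not tested. Across the 211 genes, Pearson's r between the log2 H3K27me3 ratio and log2(mean FPKM + 1) in wild type EB was -0.47 (Spearman's rho -0.50). The same ratio had r of -0.53 with log2 locus length (-0.18 across 18805 other genes). Genes are not independent replicates, and the part of locus length in this relation was not tested.

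The limma fit ran on log2(FPKM + 1) of 15428 genes, a scale that understates the change of low genes, with Benjamini-Hochberg adjusted p under 0.05 as the call. It tested 154 of the genes. The other 57 with a row did not reach 1 FPKM in 2 libraries, and 76 of the 154 did so only through wild type EB. The counts below, and the p-values of those 76 genes in comparisons with wild type EB, are thus not support for a direction. From wild type ES to EB, 149 rose (36.1% of all genes rose) and 1, Cdk5r2, fell (24.8% fell). The median log2 difference was 2.48, against 0.23 over all tested genes of the H3K4me3 table. Cdk5r2, an activator of the neuronal kinase CDK5, went from 1.29 and 0.866 FPKM to 0.11 and 0.389 (log2 difference -0.74 ± 0.19 SE, limma adjusted p = 0.0134). That call ended when replicate 1 of wild type ES, or that of wild type EB, was left out, with log2 differences of -0.59 and -0.57.

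In knockout, 70 of the 154 rose from ES to EB (17.1% of all genes rose), with a median log2 difference of 0.81 (0.11 over all). limma called 0 lower (12.0% of all genes fell), with 2 lower at an unadjusted p under 0.05. The count of 70 fell to 45 without EB knockout replicate 2, to 45 without ES knockout replicate 1 and to 41 without ES knockout replicate 2. Over all 211 genes, both knockout EB libraries exceeded both knockout ES libraries in 149 (70.6%, against 31.9%). Both knockout EB libraries also differed from each other. Replicate 2 exceeded replicate 1 in 172 of the 211 genes (81.5%), against 54.6% of tested genes.

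Compared within EB, 128 of 154 were lower in knockout by limma (25.9% of all genes were lower) and 3 were higher (20.0%), with a median log2 difference of -1.46 (-0.10 over all). Over all 211 genes, the libraries did not overlap and knockout was lower in 174 (82.5%, against 36.4%) and higher in 7 (3.32%, against 27.3%). The 7 were Cited1, Fgf5, Evx1, Gfi1, Irs4, Cdk5r2 and Gjb2. In ES, limma called 1 higher in knockout, Krt18 (0.421% of all genes), and 0 lower (0.0778%). At an unadjusted p under 0.05, 12 were higher and 1 was lower. The count of 1 fell to 0 without ES knockout replicate 1 or ES wild type replicate 2. Both knockout ES libraries were above both of wild type in 74 of 211 genes (35.1%, against 22.7%) and below them in 20 (9.48%, against 13.5%). This ES comparison and the EB to ES comparisons share libraries, as do the EB comparisons, so their values stand side by side.

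By the lists, the set held 10 of 30 mesoderm factors, 11 of 31 neural genes, 5 of 38 endoderm genes, 7 of 59 secreted signals, 3 of 48 receptors and 2 of 28 heart muscle genes of the H3K4me3 table. Over each whole list, genes outside the set included, 18 of 24 tested mesoderm factors were lower in knockout than wild type EB (median log2 difference -1.98), as were 33 of 54 secreted signals (-1.16), 34 of 45 receptors (-1.52), 9 of 34 endoderm genes (-0.23) and 8 of 17 neural genes (-0.38), by limma, where 25.9% of all genes were lower and 20.0% higher. In the same lists 3 mesoderm factors, 6 secreted signals, 0 receptors, 6 endoderm and 4 neural genes were higher. The counts of lower genes were 27 of 28 for heart muscle (-3.27), 33 of 43 for blood and endothelium (-1.70), 36 of 46 for stroma (-1.86), 16 of 25 for imprinted genes (-1.55) and 4 of 11 for trophoblast (0.60). Of the same lists 0, 0, 4, 2 and 5 genes were higher, as were 25 of 25 pluripotency genes (3.25).

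Mesoderm and heart regulators were among the genes with the lowest RNA in knockout relative to wild type EB. Nkx2-5 went from 0.485 and 0.228 FPKM in ES to 54.1 and 58.5 in EB of wild type, and from 0.571 and 0.429 to 0.56 and 3.22 in knockout. The knockout EB values thus reached from the ES level to a small fraction of wild type EB (log2 difference -4.48 ± 0.42 SE, limma adjusted p = 0.000549). Foxc1 was at most 0.0567 in ES, 9.08 and 15.0 in EB of wild type, against 0.52 and 2.27 in those of knockout (-2.51 ± 0.38 SE, limma adjusted p = 0.00238). Isl1, a LIM homeobox factor of the second heart field, had 14.1 and 14.3 against 0.825 and 3.15 (-2.46 ± 0.35 SE, limma adjusted p = 0.00207). Wild type and knockout EB did not overlap in these 3 genes. All 3 passed the FPKM filter through wild type EB alone, so their p-values are no support for a direction.

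Irx3 went from 0.0581 and 0.165 FPKM in ES to 32.6 and 33 in EB of wild type, and from 0.272 and 0.212 to 2.58 and 4.52 in knockout. It rose in both genotypes (log2 difference 4.93 ± 0.23 SE in wild type and 1.84 ± 0.23 SE in knockout, limma adjusted p = 2.65e-05 and 0.00271) and was lower in knockout EB (-2.93 ± 0.23 SE, limma adjusted p = 0.000341). Hand1, a bHLH factor of heart and extraembryonic mesoderm, kept more of its RNA, with 91.3 and 68.7 in wild type EB, against 18.1 and 25.4 in knockout (-1.84 ± 0.29 SE, limma adjusted p = 0.00269). Prrx1 passed the FPKM filter through wild type EB alone. Twist1 and Prrx1, factors of mesenchyme, had log2 differences of -3.16 and -2.35 (limma adjusted p = 0.00982 and 0.0191). Their calls ended without EB wild type replicate 2 (adjusted p = 0.0673 and 0.105), and that of Prrx1 also without EB wild type replicate 1 (0.0573). Msx1, at -1.0 (limma adjusted p = 0.0415), lost its call when any 1 of 7 of the 8 libraries was left out (adjusted p from 0.0526 to 0.161).

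**Figure D4:**
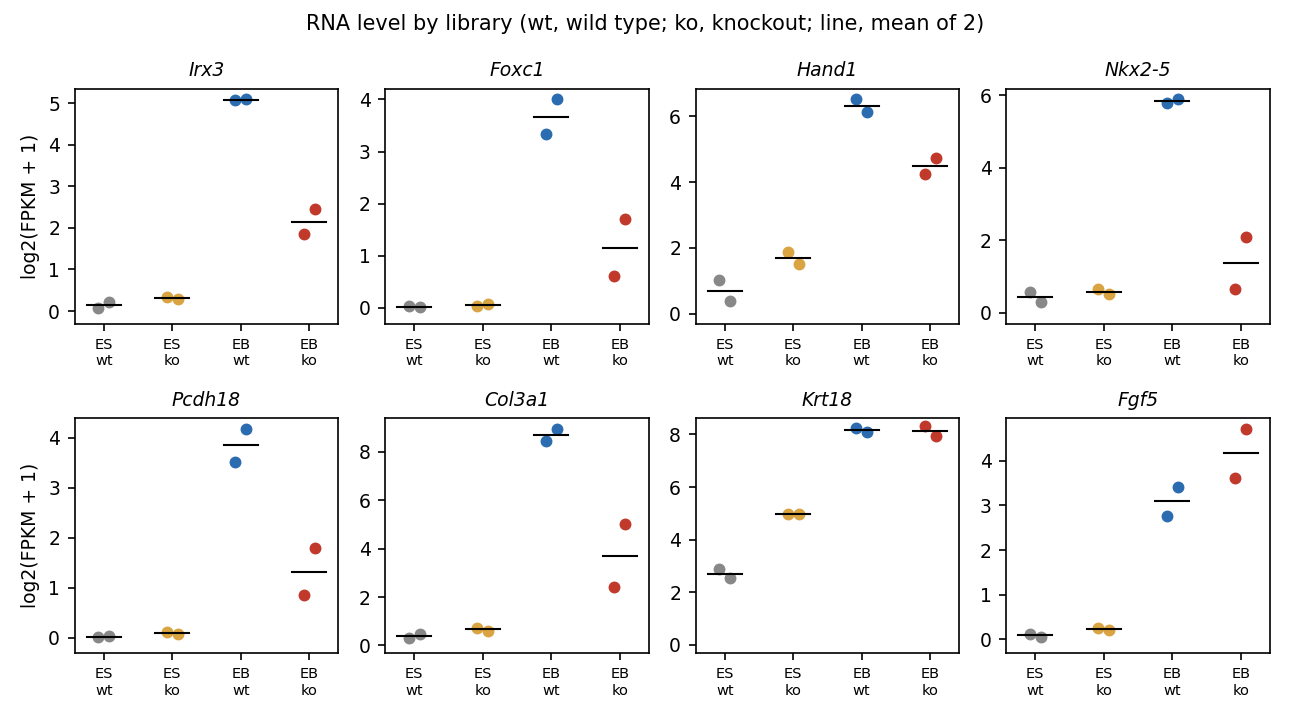
log2(FPKM + 1) of 8 genes in the 8 RNA libraries, 1 point per library and a line at the mean of 2, each panel with its own y axis. Irx3, Foxc1, Hand1, Nkx2-5, Pcdh18 and Col3a1 are lower in both knockout EB libraries than in both wild type EB libraries, Krt18 overlaps, and Fgf5 is higher in both knockout EB libraries.

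Endoderm genes of the set were less uniform. Gata6 had 60.9 and 70.6 FPKM in wild type EB, against 4.24 and 10.2 in knockout (log2 difference -3.12 ± 0.40 SE, limma adjusted p = 0.00144). Foxa2, a forkhead factor of definitive endoderm and notochord, had 20.8 and 21.8 against 5.67 and 9.96 (-1.38 ± 0.27 SE, limma adjusted p = 0.0061). Krt18 had 303 and 269 in wild type EB, against 320 and 243 in knockout, so the groups overlapped (-0.03 ± 0.17 SE, limma adjusted p = 0.885). Its level in ES differed, at 6.31 and 4.77 in wild type and 30.7 and 30.5 in knockout (2.28 ± 0.17 SE, limma adjusted p = 0.00545). Krt8 had 11 and 4.48 against 33.5 and 30.9 in ES (2.03 ± 0.33 SE), which missed the threshold (limma adjusted p = 0.0636). The H3K4me3 of Krt18 in ES was 2.4 in wild type and 2.61 in knockout.

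Matrix, signal and receptor genes had large differences. Col3a1 was between 0.249 and 0.647 FPKM in the 4 ES libraries, and 349 and 492 in EB of wild type, against 4.3 and 31.0 in those of knockout (log2 difference between EB groups -5.0 ± 0.71 SE, limma adjusted p = 0.00204). Knockout EB replicates differed several-fold but both stayed far below wild type. Dlk1, an imprinted Notch-related protein, had 422 and 584 against 6.41 and 66.6 (-4.47 ± 0.90 SE, limma adjusted p = 0.00691). Bmp5 had 14.9 and 12.4 against 0.572 and 2.7 (-2.60 ± 0.37 SE, limma adjusted p = 0.00199).

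Bmp2, a BMP ligand, and Nog, the secreted BMP antagonist, were both lower, at -1.07 and -1.20 (limma adjusted p = 0.00295 and 0.00704). With a pseudocount of 0.1 both calls ended (adjusted p = 0.0745 and 0.0505). Rspo3, a Wnt agonist, was at -1.18 (limma adjusted p = 0.00718). Among receptors, Ednra and Ednrb, which bind endothelins, were at -2.99 and -2.81 and S1pr1, for sphingosine 1-phosphate, at -1.58 (limma adjusted p = 0.000403, 0.00533 and 0.0018). Rarb had 9.56 and 11.4 FPKM in wild type EB, against 0.767 and 0.872 in knockout (-2.65 ± 0.18 SE, limma adjusted p = 0.000252), the smallest adjusted p of the set in this comparison. Nog, Ednra and Rarb were among the genes that passed the FPKM filter through wild type EB alone. The p-values of such genes are no support for a direction.

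Hox genes had RNA in wild type EB. Hoxb4 had 6.7 and 6.54 FPKM in wild type EB, against 1.17 and 1.76 in knockout (log2 difference -1.64 ± 0.19 SE, limma adjusted p = 0.000984). Hoxd9 had 4.62 and 6.85 against 0.418 and 1.86, and Hoxc9 had 1.37 and 1.55 against 0.128 and 0.246 (limma adjusted p = 0.00615 and 0.00219). Both Hoxd9 and Hoxc9 passed the FPKM filter through wild type EB alone, so their p-values are no support for a direction. From a list of 52 Hox names, with members and other genes together, limma tested 21. In wild type EB against ES 21 of 21 rose (median log2 difference 1.75), and in knockout 3 rose (0.32). Within EB, 20 were lower in knockout (-1.38). The shares of all genes with these calls were 36.1%, 17.1% and 25.9%. Summed FPKM of the listed Hox genes was at most 3.88 per ES library. It was 9.12 and 20.2 for knockout EB, far under the 72.6 and 82.8 of wild type EB. Many of the 21 may thus have passed the FPKM filter through wild type EB alone, so these counts are no support for a direction.

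A few genes went the other way. Fgf5 had 5.8 and 9.65 FPKM in wild type EB, against 11.3 and 25.3 in knockout, without overlap (log2 difference 1.08 ± 0.37 SE, limma adjusted p = 0.0499). Gjb2, a gap junction protein of epithelium, had 2.31 and 4.26 against 7.99 and 5.86 (0.91 ± 0.26 SE, limma adjusted p = 0.0245). Cdk5r2 had 0.11 and 0.389 against 1.1 and 0.963 (0.71 ± 0.19 SE, limma adjusted p = 0.0216). All 3 calls ended without EB wild type replicate 1 (log2 differences 0.75, 0.58 and 0.55) and with no filter on low FPKM. The call of Fgf5 also ended when any other library except EB knockout replicate 1 was left out, and with a mean of at least 5 FPKM. Those of Gjb2 and Cdk5r2 also ended without EB knockout replicate 1 (0.72 and 0.66). A pseudocount of 0.1 ended the calls of Fgf5 and Gjb2. Cyp26a1, which degrades retinoic acid and was picked here after its values were seen, had 14.9 and 24.6 FPKM in wild type EB, against 18.9 and 41.7 in knockout, which overlapped (0.53 ± 0.43 SE, limma adjusted p = 0.348).

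RNA and H3K4me3 differences can be set side by side as a description, since the wild type EB H3K4me3 value chose the genes and 76 of the 154 passed the FPKM filter through wild type EB alone. Across 154 genes Pearson's r between the log2 H3K4me3 ratio and the RNA log2 difference, both knockout against wild type EB, was 0.59 (Spearman's rho 0.60). For 12192 tested genes outside the set it was 0.56 (0.52), so the relation was of like size there. The labels do not say whether the RNA and ChIP libraries came from the same EB cultures. Nkx2-5 had an H3K4me3 ratio of 0.701 beside its RNA log2 difference of -4.48.

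**Figure D5:**
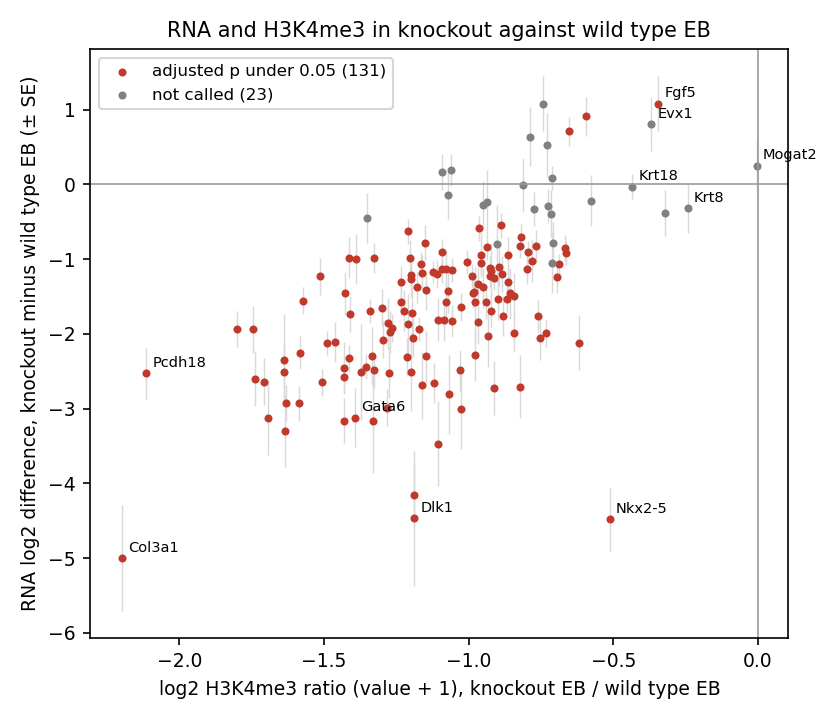
log2 H3K4me3 ratio (value + 1) of knockout over wild type EB on the x axis and RNA log2 difference of knockout minus wild type EB on the y axis, with bars of ± 1 SE, for the 154 tested genes; the 131 called by limma are red. Col3a1 and Pcdh18 have the lowest H3K4me3 ratios, Mogat2 the highest, and Fgf5 is among the few called above 0.

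Genes that write, read or remove H3K4 methylation were followed from a separate list. Of 27 tested, 7 were higher and 5 lower in knockout than wild type EB by limma (20.0% and 25.9% of all genes), and none was in the set. The core complex subunits Ash2l and Dpy30 were at 1.19 ± 0.11 SE and 1.03 ± 0.12 SE (limma adjusted p = 0.000576 and 0.00111), and Men1, an MLL complex subunit, was at -0.82 ± 0.14 SE (adjusted p = 0.00365). The methyltransferase genes Kmt2a, Kmt2b, Kmt2c, Kmt2d and Setd1a were not called, and Setd1b was lower at -0.58 ± 0.17 SE (adjusted p = 0.0306). Kdm5b, which removes H3K4 methylation, was higher at 0.89 ± 0.14 SE (limma adjusted p = 0.00255), and Kdm5a, Kdm5c and Kdm1a were not called. From ES to EB, Ash2l and Dpy30 were at -1.29 and -1.70 in wild type and -0.01 and -0.25 in knockout. The genes named from this list were picked outside the naming rules, and their part in the values above was not tested.

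The thresholds set the margins of the list. Just inside the EB threshold were 1810011O10Rik, Tmem204 and Mamld1 at 8.03 to 8.22, and just outside Tcf21, Cxx1a and Ctso at 7.79 to 7.9. At the ES threshold Foxc2, Zfp800 and Ets1 lay inside at 4.96 to 4.99, and Lrrn1, Gata5 and Cd248 outside at 5.02 to 5.07. At the ratio of 3, Col11a1, Gad2 and Asb4 lay inside at 3.03 to 3.05, and Lgi2, Pcdh8 and Tbx15 outside at 2.98 to 2.99. At each margin the thresholded value was nearly the same on both sides, while the other values of those genes could differ. The 3 genes inside the ES threshold had wild type EB values of 22.8 to 32.5, against 15.4 to 19.9 for the 3 outside.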

How the data were processed

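The series has 20 samples, 8 RNA-seq, 8 ChIP-seq and 4 input libraries, which were not used here. The submitters' processing notes name mm10, DESeq2, HTSeq, Bowtie2, Cufflinks 2.2.1 and STAR 2.6.0a without saying what each did. The deposited RNA table gives FPKM per library, and the deposited ChIP tables give a signal per gene. Their file names call it RPKM on promoters, which the values do not bear out, so it was compared only within a gene, apart from the rule's thresholds and the choice of genes to name. This differs from the unit assumed in the design. Columns were mapped by name, and 0 were unmapped.

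limma 3.58.1 (R 4.3.3) was run on log2(FPKM + 1) (eBayes with trend, 1 mean per group, 4 residual and 7.05 total degrees of freedom, two-sided, Benjamini-Hochberg over 15428 genes with 1 FPKM or more in 2 of 8 libraries). For symbols with more than 1 entry, the entry with the highest mean was kept, and 120 entries were left out. The fit was tested on simulated data. Symbols joined the tables. Of the 219 genes, 211 had an FPKM row, 5 through an older RefSeq symbol, and 8 had none. ChIP ratios used an offset of 0.1 (H3K27me3) or 1 (the H3K4me3 ratio of knockout over wild type EB per gene), and the counts of H3K4me3 folds used none.

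Named genes were, by rule, the highest in wild type EB H3K4me3 in the whole set and per list of 13 lists. Also named were the highest and lowest in knockout over wild type EB and those with the smallest adjusted p. The last were those with the largest H3K27me3 changes from wild type ES to wild type EB, and those next to a threshold. Others are said to be chosen after their values were seen or outside the rules, or are listed by name to account for a count. The genes, lists and families were chosen with earlier results of these data known. Same-numbered libraries of different groups had correlated deviations with r from 0.068 to 0.311. The labels do not call them pairs, so the numbers were not taken as pairs in the main fit.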

Additional observations from a re-analysis of the deposited data

Results flagged for a closer look

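The knockout effect on RNA was compared between EB and ES. In the limma interaction (knockout minus wild type in EB, less the same in ES, on log2(FPKM + 1)), 115 of the 154 tested genes were lower and 0 were higher, against 18.6% and 12.7% of all tested genes. At an unadjusted p under 0.05, 130 were lower and 0 higher. Of the 154, 76 passed the FPKM filter through wild type EB alone, so these counts are no support for a direction. This interaction shares its 8 libraries with the other comparisons. Without EB knockout replicate 1, 2 genes were called higher.

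Of the genes named by rule, only those with a called interaction are given here. Among them the difference was largest in Dlk1 at -5.39, Col3a1 at -5.26, Nkx2-5 at -4.63, Gata6 at -3.62, Irx3 at -3.09 and Ednra at -3.01. It was between -3 and -2.5 in Irx5 at -2.96, Ednrb at -2.87, Hand1 at -2.85, Ndn at -2.74, Bmp5 at -2.62, Pcdh18 at -2.60, Isl1 at -2.58, Foxc1 at -2.55, Efnb1 at -2.53, Rarb at -2.52 and Foxd2 at -2.51. It was between -2.5 and -2 in Krt8 at -2.35, Krt18 at -2.32, Foxf2 at -2.28, Foxe1 at -2.17, Osr1 at -2.14 and Car14 at -2.07. Among the called genes the smallest were Fat4 at -1.96, Maf at -1.94, Fam115a at -1.82, Foxa2 at -1.77, Hoxd9 at -1.77, S1pr1 at -1.72, Tmed3 at -1.68, Hoxb4 at -1.60, Hmx3 at -1.30, Rspo3 at -1.25, Nog at -1.19, Bmp2 at -1.06 and Hoxc9 at -1.02. In Krt18 and Krt8 both knockout ES libraries exceeded both wild type ES libraries, and the log2 difference within EB was -0.03 and -0.32.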

How the results depend on the processing

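Depth is unknown, and ChIP has 1 library per group, so no ChIP difference can be set against replicate error. With 2 RNA libraries per group, a library left out leaves its group with 1, assumed to vary like the others.

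Leaving out 1 library gave 144 to 148 genes higher and 0 to 1 lower in wild type EB than ES, 41 to 94 higher and 0 to 1 lower in knockout EB than ES, 109 to 128 lower and 0 to 4 higher in knockout than wild type EB, 0 to 2 higher in knockout than wild type ES, and an interaction lower in 79 to 124 and higher in 0 to 2. The replicate block moved the count higher in knockout ES from 1 to 2 and no other count by over 1.5 times. The labels do not say whether same-numbered libraries share more than the number.

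A mean of at least 5 FPKM left 40 genes tested, so fewer could be called. Of them 40 rose in wild type and 0 fell, 29 rose in knockout, 32 were lower and 0 higher in knockout EB, and 31 had a lower interaction. In the 87 tested genes with a ratio of at least 4, 84 rose in wild type and 0 fell, 39 rose in knockout, 76 were lower and 1 higher in knockout EB, and 66 had a lower interaction. Genes higher in knockout EB fell from 3 to 1 with a pseudocount of 0.1 and to 0 with no filter. Quantile normalization gave 2 genes lower in knockout EB than ES instead of 0. The cause was not tested.

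For H3K4me3, libraries scaled to the same median changed the set to 120 genes, with 4 instead of 11 past the knockout thresholds, 78 instead of 139 at least 2-fold below wild type EB, and 5 instead of 12 by the rule in knockout. A ratio of 4 gave 116 genes with 0 past the thresholds and 1 by the knockout rule, and a ratio of 2 gave 339 with 48 and 56. In 120 genes with loci under 10 kb the counts were 7 and 71. With libraries quantile normalized, chosen after seeing the data, the set had 175 genes, with 12, 100 and 15.

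For H3K27me3, a fold of 1.5 gave 47 falls in wild type, 10 falls in knockout and 37 genes higher in knockout EB. Values plus 1 gave 17 falls in wild type and 47 rises in knockout. Loci under 10 kb gave 7 falls in wild type, 0 in knockout and 4 higher in knockout EB. Single genes kept their side of the threshold in 1188 combinations of gene and setting, lost it in 53, gained it in 1 and reversed in none.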
